A study of Mus musculus with 16 samples.

Results

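The genes described here are the 5 IL-17 receptor genes (Il17ra, Il17rb, Il17rc, Il17rd and Il17re), the adaptor and ligase genes that sit on the receptor's inner side (Traf3ip2 and Traf6), and a pair of regulators that the pathway induces (Nfkbiz and Zc3h12a). They were chosen by gene symbol, and all 9 were found among the 26357 genes of the count table. The table holds total RNA-seq of 16 mouse samples, with 4 in each of 4 groups: IL-23 with an oral (per os) drug vehicle, IL-23 with an intraperitoneal drug vehicle, vehicle in place of IL-23 with the oral drug vehicle, and vehicle in place of IL-23 with the intraperitoneal drug vehicle. All 4 groups therefore received a drug vehicle, at 0 mpk of compound, and mice are called oral or intraperitoneal by its route. The labels give no tissue, strain, age, sex, IL-23 dose or day of harvest, and the series title places the experiment in IL-23 driven psoriasiform dermatitis. The number that opens each title names a library below, and nothing in the labels says whether the samples are separate animals, so the p-values measure only the spread between these samples, which may be technical.

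IL-17 cytokines act through pairs of receptor chains. IL-17RA is the shared chain: it joins IL-17RC to bind IL-17A and IL-17F, IL-17RB to bind IL-25, and IL-17RE to bind IL-17C, while IL-17RD is a related chain also known as a regulator of growth factor signalling. The receptors recruit Act1, the product of Traf3ip2, which in turn engages the ubiquitin ligase TRAF6 and leads to NF-kB and MAP kinase activity. In keratinocytes the pathway is known for inducing chemokines and antimicrobial proteins, together with its own amplifier IkB-zeta (Nfkbiz) and its own brake, the RNase Regnase-1 (Zc3h12a).

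IL-23 was accompanied by higher Zc3h12a, Nfkbiz, Il17rc and Il17ra and by lower Il17rb and Il17rd, in the same direction under both dosing routes. Of the 9 genes, 6 were called higher, 2 lower and 1 (Il17re) was not called in oral mice, and the same 6, 2 and 1 genes in intraperitoneal mice (edgeR's quasi-likelihood test, adjusted p below 0.05). Changes were common in these libraries: of the 14671 genes tested, 63.3% were called in oral and 61.7% in intraperitoneal mice. By direction, 29.2% of genes were called higher and 34.0% lower in oral mice, and 30.8% higher and 30.9% lower in intraperitoneal mice. All 9 genes passed the filter on low counts. Their median log2 fold change was 0.31 in oral mice, against -0.06 over all genes tested, and 0.39 in intraperitoneal mice, against -0.02 over all genes. The median size of the change, whatever its sign, was 1.03 in oral and 0.94 in intraperitoneal mice for the 9 genes and 0.49 and 0.46 for all genes.

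Depth was 6381990 to 10078531 counts per library with IL-23 (8 libraries) and 7159325 to 14432930 with vehicle (8 libraries). The 10 keratinocyte markers were detected in every library, with a summed level of 40780.4 to 72807 CPM (read counts scaled by library size and TMM factors) in IL-23 and 25409.9 to 33773 CPM in vehicle libraries. IL-23 intraperitoneal library 28 stood apart: its summed T cell markers were at 84.8 CPM against 16.4 to 32.1 CPM in the 7 other IL-23 libraries, its monocyte and macrophage markers at 1532 against 312 to 648 CPM, its fibroblast markers at 5254 against 1030.1 to 1893 CPM, and its summed keratinocyte markers were the lowest of the IL-23 libraries. Over all libraries the T cell markers summed to 16.4 to 84.8 CPM with IL-23 and 15.7 to 25.6 CPM with vehicle. Where leaving out library 28 changed a call, both values are given.

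Promoter windows, from 250 bases before to 50 bases after a RefSeq transcription start on GRCm38.p6, were found for 6 of the 9 genes (Il17rb, Il17rc, Il17rd, Il17re, Traf6 and Zc3h12a). The 3 shown belong to the receptor gene with the largest rise, the receptor gene with the largest fall and the gene with the largest rise of all 9, and capitals mark motif matches on either strand.
Il17rc promoter, chr6:113471205-113471504, + strand: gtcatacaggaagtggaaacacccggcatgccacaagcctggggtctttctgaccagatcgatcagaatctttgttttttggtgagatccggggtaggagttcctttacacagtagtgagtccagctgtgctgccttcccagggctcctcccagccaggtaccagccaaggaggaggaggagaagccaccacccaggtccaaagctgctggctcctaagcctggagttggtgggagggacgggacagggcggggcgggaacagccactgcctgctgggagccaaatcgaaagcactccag
Il17rb promoter, chr14:30008847-30009146, - strand: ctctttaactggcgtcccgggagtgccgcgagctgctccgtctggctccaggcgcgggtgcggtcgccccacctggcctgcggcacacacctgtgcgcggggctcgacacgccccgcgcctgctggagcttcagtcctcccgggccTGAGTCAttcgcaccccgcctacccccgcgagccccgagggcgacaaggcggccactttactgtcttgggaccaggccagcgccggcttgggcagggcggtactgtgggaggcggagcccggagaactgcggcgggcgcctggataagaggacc
Zc3h12a promoter, chr4:125127832-125128131, - strand: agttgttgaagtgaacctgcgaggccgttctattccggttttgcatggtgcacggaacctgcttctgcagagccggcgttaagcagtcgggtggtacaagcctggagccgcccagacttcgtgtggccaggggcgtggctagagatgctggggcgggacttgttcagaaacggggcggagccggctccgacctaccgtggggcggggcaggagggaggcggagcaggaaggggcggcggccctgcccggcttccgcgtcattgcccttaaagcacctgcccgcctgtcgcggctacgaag
The motifs searched were AP-1 (TGANTCA), C/EBP (TTNNGNAAT), STAT (TTCNNNGAA) and the NF-kB family's kappaB consensus, which 7.81%, 11.5%, 8.30% and 8.46% of all 32851 promoter windows hold. The Il17rb window held 1 AP-1 match, TGAGTCA, at positions -104 to -98 from the start, and the Il17re window held 1 C/EBP match. The Il17rc, Il17rd, Traf6 and Zc3h12a windows held none of the 4 motifs in these letters. GC content was 58.7% for Il17rc, 72.0% for Il17rb and 65.7% for Zc3h12a, with a median of 52.7% over all windows.

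Il17rc, which encodes the chain that completes the IL-17A and IL-17F receptor, had the largest rise of the 5 receptor genes. Its gene lies on the plus strand at chr6:113471455-113483163 (ID 171095), just downstream of Il17re on the same strand. In oral mice it stood at 195, 238, 240.3 and 258 CPM in IL-23 libraries, against 98.1, 99.9, 105 and 124 CPM in vehicle libraries. In intraperitoneal mice it stood at 175, 217, 223 and 272 CPM in IL-23 libraries, against 97.1, 107, 127 and 131 CPM in vehicle libraries. Every IL-23 library lay above every vehicle library. The log2 fold change was 1.12 ± 0.13 in oral mice (SE, adjusted p = 1.74e-06, 2.18-fold) and 0.94 ± 0.13 in intraperitoneal mice (adjusted p = 1.26e-05, 1.92-fold). Among the IL-23 libraries Il17rc was highest in intraperitoneal library 25, which also had the highest summed keratinocyte markers (72807 CPM), and lowest in library 28, which had the lowest (40780.4 CPM). The summed keratinocyte level was higher in all 8 IL-23 libraries than in any vehicle library, but its members differed. Krt1 stood at 6670.0 to 14510.5 CPM in IL-23 and 602 to 1736 CPM in vehicle libraries, and Krt14 at 9825 to 15751 CPM and 5429 to 8182 CPM. Dsc3 averaged 1016 ± 139 CPM in IL-23 and 998 ± 33.9 CPM in vehicle libraries (SD, n = 8 each). The basal adhesion genes Col17a1 and Itgb4 lay the other way, Col17a1 at 1074 to 1358 CPM in IL-23 and 2597 to 3347 CPM in vehicle libraries and Itgb4 at 189 to 257 CPM and 315 to 423 CPM. Their part in the Il17rc result was not tested, and more cells of a type cannot be told apart from more RNA per cell in these bulk samples.

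Il17ra, the chain shared by the family's receptors (chr6:120463181-120483731, plus strand, ID 16172), rose by a smaller amount. Oral mice had Il17ra at 43.9, 46.4, 52.3 and 52.5 CPM in IL-23 libraries, against 30.3, 33.5, 34.0 and 37.6 CPM in vehicle libraries. Intraperitoneal mice had it at 44.8, 48.6, 56.6 and 59.1 CPM in IL-23 libraries, against 33.9, 34.6, 35.1 and 39.3 CPM in vehicle libraries. The IL-23 and vehicle libraries did not overlap in either route. Its log2 fold change was 0.53 ± 0.10 in oral mice (adjusted p = 0.000205, 1.44-fold) and 0.55 ± 0.10 in intraperitoneal mice (adjusted p = 0.000155, 1.46-fold). With plain library size in place of TMM factors the change was 0.33 in both routes (adjusted p = 0.0107 in oral and 0.0103 in intraperitoneal mice), still called higher. That scaling moved the median change of all genes over both routes to -0.25, against -0.04 with TMM factors.

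Il17re, the IL-17C receptor chain of epithelial cells (chr6:113458699-113470758, plus strand, ID 57890), was the 1 gene not called in either route. Its oral levels were 40.3, 42.3, 44.5 and 46.3 CPM in IL-23 libraries, against 34.7, 36.4, 36.7 and 46.8 CPM in vehicle libraries. Its intraperitoneal levels were 30.0, 39.5, 45.7 and 49.1 CPM in IL-23 libraries, against 30.2, 33.0, 36.0 and 42.4 CPM in vehicle libraries. The groups overlapped in both routes, with library 28 the lowest of all the IL-23 libraries. Its log2 fold change was 0.16 with a 95% interval of -0.13 to 0.45 in oral mice (adjusted p = 0.317) and 0.22 with an interval of -0.08 to 0.51 in intraperitoneal mice (adjusted p = 0.183). Without library 28 the intraperitoneal change was 0.37 (adjusted p = 0.015) and would have been called higher. The sign turned with plain library size, at -0.04 in oral mice and -0.0015 in intraperitoneal mice, neither called.

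Il17rb, the chain that binds IL-25 and IL-17B (chr14:29996168-30008896, minus strand, ID 50905), had the largest fall. Oral mice had Il17rb at 2.66, 3.28, 3.50 and 3.83 CPM in IL-23 libraries (20 to 36 counts), against 6.58, 10.1, 10.7 and 11.2 CPM in vehicle libraries (54 to 152 counts). Intraperitoneal mice had it at 1.33, 2.54, 3.80 and 4.70 CPM in IL-23 libraries (8 to 32 counts), against 9.71, 11.2, 11.4 and 11.7 CPM in vehicle libraries (85 to 175 counts). All IL-23 libraries lay below all vehicle libraries, on few counts. This made a log2 fold change of -1.54 ± 0.25 in oral mice (adjusted p = 6.24e-05, 2.90-fold lower) and -1.82 ± 0.26 in intraperitoneal mice (adjusted p = 1.59e-05, 3.54-fold lower). Exons of Il17rb share 141 of 3707 bases with those of Actr8 on the opposite strand. Actr8, a gene for a chromatin remodelling subunit, had log2 fold changes of 0.08 in oral mice (adjusted p = 0.451) and -0.13 in intraperitoneal mice (adjusted p = 0.209). The strand setting of the counting is not given in the sources used here, so reads of the shared part cannot be assigned.

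Il17rd, whose product is also called Sef (chr14:27038964-27107286, plus strand, ID 171463), fell too. In oral mice it stood at 3.68, 3.93, 4.43 and 7.37 CPM in IL-23 libraries (27 to 61 counts), against 7.20, 9.46, 9.87 and 13.4 CPM in vehicle libraries (81 to 132 counts). In intraperitoneal mice it stood at 2.85, 4.70, 6.30 and 6.69 CPM in IL-23 libraries (24 to 58 counts), against 9.63, 9.93, 9.94 and 14.3 CPM in vehicle libraries (73 to 152 counts). IL-23 oral library 24 lay just above the lowest vehicle oral library, and the intraperitoneal groups did not overlap. The log2 fold change was -1.03 ± 0.27 in oral mice (adjusted p = 0.00357, 2.04-fold lower) and -1.09 ± 0.27 in intraperitoneal mice (adjusted p = 0.0024, 2.14-fold lower).

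The falls of Il17rb and Il17rd came beside lower summed markers of several tissues. The 6 adipocyte markers summed to 119 to 199 CPM in IL-23 and 312 to 529 CPM in vehicle libraries, the 8 sebaceous gland markers to 7223 to 10768 CPM and 17340.3 to 25853 CPM, and the 10 skeletal muscle markers to 1416 to 2695 CPM and 3125 to 6836 CPM. All of these markers were detected in every library, and none of the 3 sums overlapped between IL-23 and vehicle libraries. Most of the sebaceous sum was Scd1, at 7079 ± 1092 CPM in IL-23 and 18513 ± 2365 CPM in vehicle libraries (SD, n = 8 each). Of the same list Scd3 had 10.5 ± 4.23 CPM in IL-23 and 5.83 ± 2.17 CPM in vehicle libraries, and Elovl3 623 ± 111 CPM and 648 ± 170 CPM. The 8 fibroblast markers summed to 1030.1 to 5254 CPM in IL-23 and 1818 to 3712 CPM in vehicle libraries, and without library 28 the highest IL-23 value was 1893 CPM. The 8 endothelial markers summed to 108 to 201 CPM in IL-23 and 130.0 to 276 CPM in vehicle libraries. Their part in the falls was not tested.

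**Figure D1:**
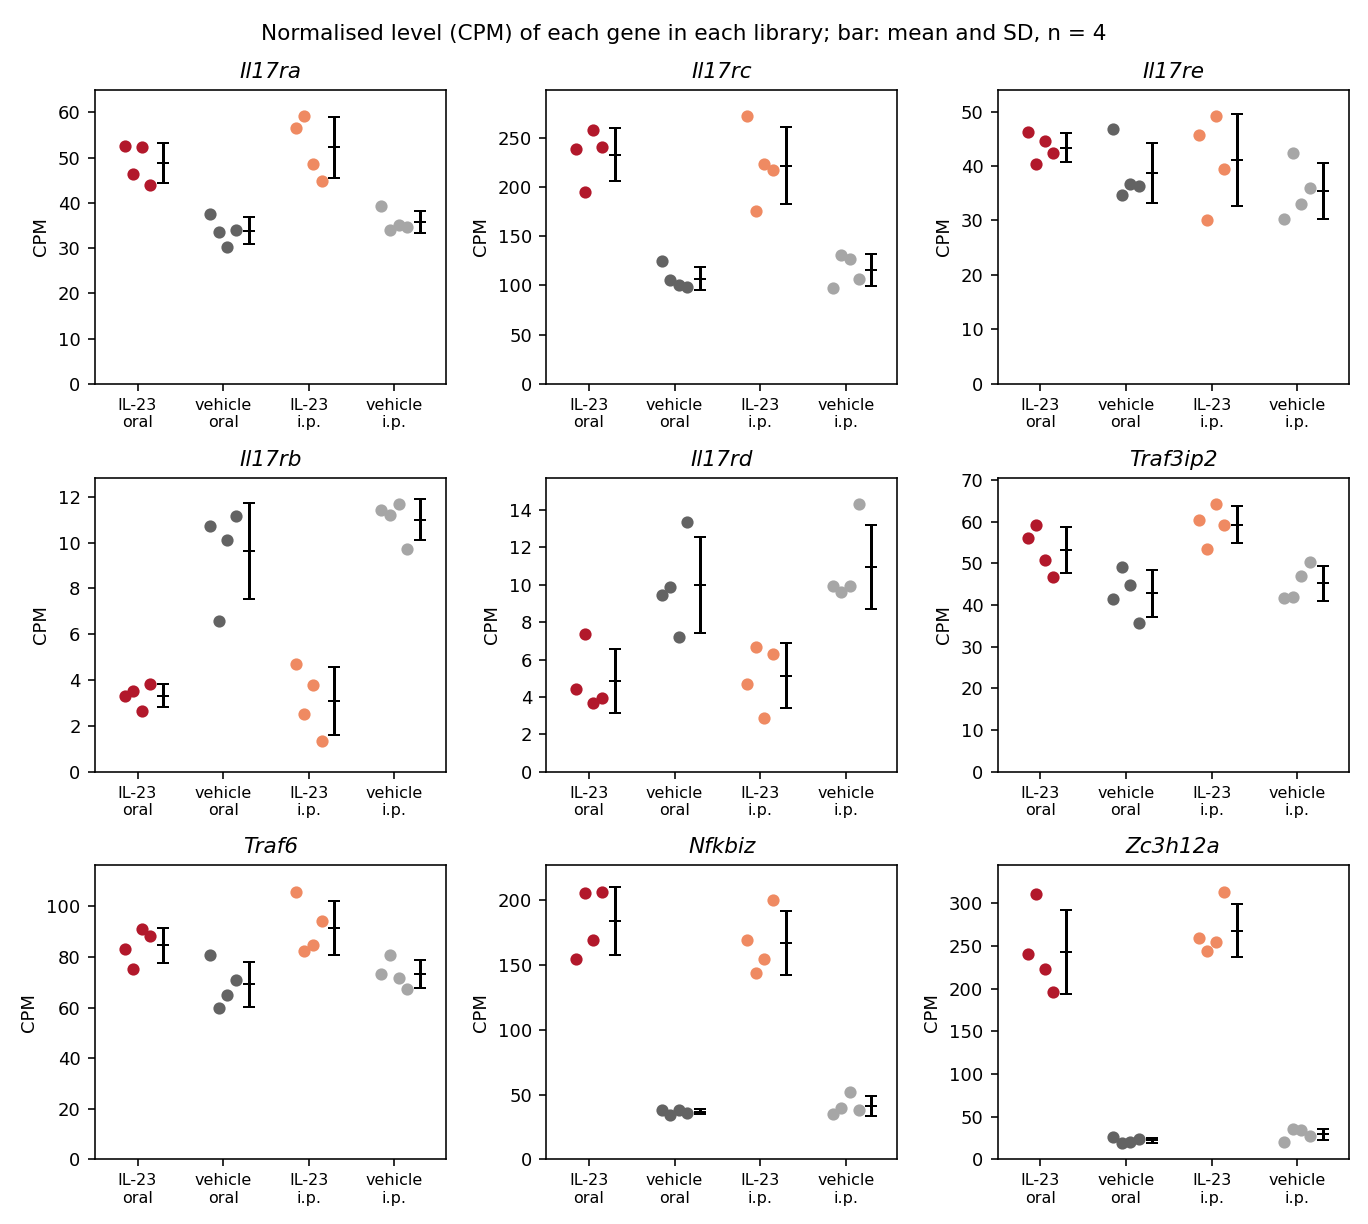
Level of each gene in each library, in CPM, by agent and dosing route (i.p., intraperitoneal). Points are libraries and black bars are the mean and SD of 4 libraries. Zc3h12a, Nfkbiz, Il17rc and Il17ra stand higher and Il17rb lower in every IL-23 library than in any vehicle library of the same route, whereas the Il17re groups overlap.

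On a scale that can be compared between genes, CPM per kilobase of exon, Il17rc was by far the most abundant receptor transcript. Lengths came from GENCODE M21 on GRCm38 (8662 exonic bases for Il17ra, 3707 for Il17rb, 2671 for Il17rc, 10985 for Il17rd and 5868 for Il17re), and since the authors' annotation is not given in the sources used here, these levels are approximate. Il17rc stood at 87.1 ± 9.99 CPM per kilobase in IL-23 oral and 83.0 ± 14.8 in IL-23 intraperitoneal mice, against 40.0 ± 4.51 in vehicle oral and 43.3 ± 6.09 in vehicle intraperitoneal mice (SD, n = 4 each). Next came Il17re, at 7.39 ± 0.44 and 7.0 ± 1.43 CPM per kilobase in IL-23 oral and intraperitoneal mice, against 6.59 ± 0.93 and 6.03 ± 0.89 in the vehicle groups. Il17ra followed at 5.63 ± 0.50 and 6.03 ± 0.77 in the IL-23 groups, against 3.91 ± 0.34 and 4.13 ± 0.28 in the vehicle groups. Il17rb was lower, at 0.90 ± 0.13 and 0.83 ± 0.40 in the IL-23 groups, against 2.60 ± 0.56 and 2.97 ± 0.24 in the vehicle groups. Il17rd was the lowest, at 0.44 ± 0.16 and 0.47 ± 0.16 in the IL-23 groups, against 0.91 ± 0.23 and 1.0 ± 0.20 in the vehicle groups.

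Neighbours in that order were close in places. Il17re and Il17ra overlapped in IL-23 intraperitoneal mice (5.11 to 8.37 against 5.17 to 6.82 CPM per kilobase), as did Il17rb and Il17rd there (0.36 to 1.27 against 0.26 to 0.61). With the longest GENCODE transcript as the length the order of the means was the same in all 4 groups, but Il17re stood higher, at 14.8 ± 0.88 in IL-23 and 13.1 ± 1.86 in vehicle oral mice, and Il17ra and Il17rb overlapped in vehicle oral mice (3.91 to 4.85 against 2.55 to 4.33). The makeup of the receptor transcripts moved towards Il17rc: its share of the summed level of the 5 genes was 83.2% to 86.8% in IL-23 and 71.9% to 77.6% in vehicle libraries. Il17re took 6.48% to 8.47% in IL-23 and 9.17% to 12.7% in vehicle libraries, and Il17rb 0.38% to 1.09% in IL-23 and 3.42% to 6.17% in vehicle libraries. The Il17ra share overlapped, at 4.89% to 8.65% in IL-23 and 6.11% to 9.07% in vehicle libraries. The shares were taken with the exon lengths only and depend on the length used, since Il17re stands higher with the longest transcript. They are a description of the 5 genes together and were not tested.

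**Figure D2:**
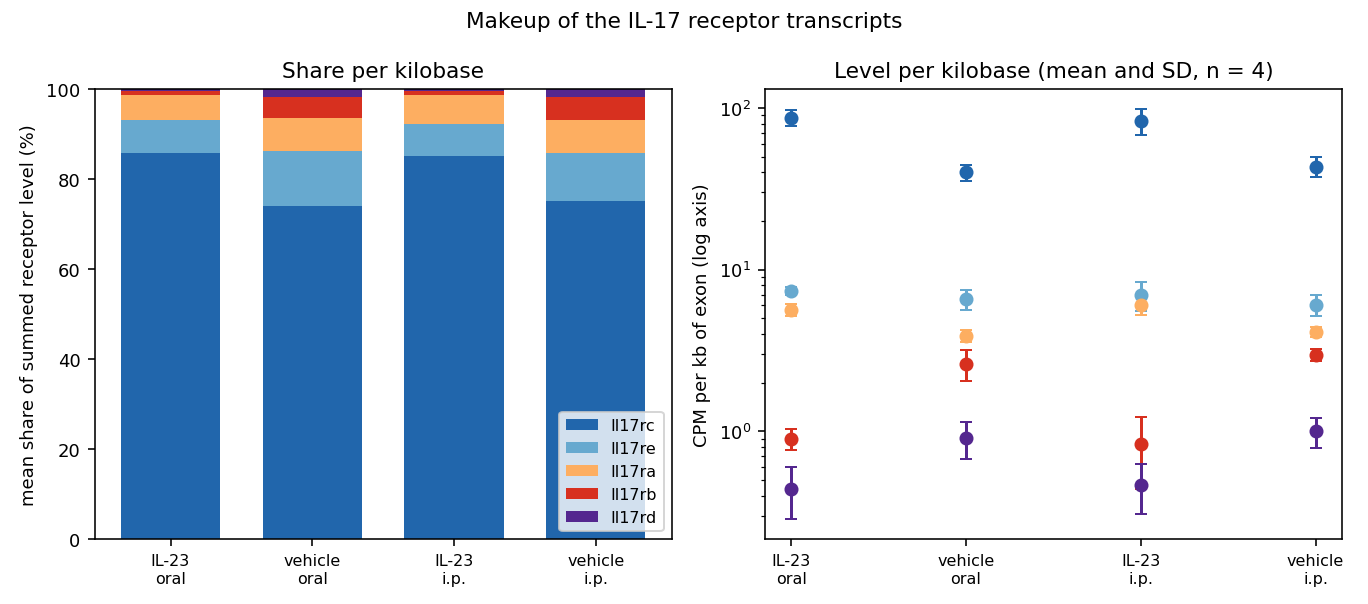
Receptor transcripts by group. The left panel stacks each gene's mean share of the summed CPM per kilobase of exon (%), and the right panel gives the mean and SD of CPM per kilobase of exon on a log axis, n = 4. Il17rc fills more of the IL-23 bars (85.8% oral, 85.1% intraperitoneal) than of the vehicle bars (74.0% oral, 75.2% intraperitoneal).

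The genes for the proximal signalling proteins changed little. Traf3ip2 (chr10:39612934-39655307, plus strand, ID 103213) encodes Act1, the adaptor and ligase on which IL-17 signalling depends. Its oral levels were 46.8, 50.9, 56.2 and 59.2 CPM in IL-23 libraries, against 35.8, 41.4, 44.9 and 49.1 CPM in vehicle libraries. Its intraperitoneal levels were 53.4, 59.2, 60.5 and 64.2 CPM in IL-23 libraries, against 41.8, 41.8, 46.9 and 50.3 CPM in vehicle libraries. The oral groups overlapped and the intraperitoneal groups did not. This was a log2 fold change of 0.31 ± 0.10 in oral mice (adjusted p = 0.0135) and 0.39 ± 0.10 in intraperitoneal mice (adjusted p = 0.0034). An annotated antisense gene, E130307A14Rik, shares 293 exonic bases with Traf3ip2, and it moved the other way on few counts (11 to 25 in IL-23 and 29 to 94 in vehicle libraries). Its log2 fold changes were -0.86 ± 0.26 in oral mice (adjusted p = 0.00922) and -1.03 ± 0.26 in intraperitoneal mice (adjusted p = 0.00285). Without a stated strand setting, reads of the shared part cannot be told apart.

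Traf6 (chr2:101678420-101701668, plus strand, ID 22034), the ubiquitin ligase that Act1 engages and that many innate receptors share, moved about as much. Oral mice had Traf6 at 75.4, 83.3, 88.4 and 91.1 CPM in IL-23 libraries, against 59.9, 65.0, 71.0 and 80.8 CPM in vehicle libraries. Intraperitoneal mice had it at 82.1, 84.5, 94.0 and 106 CPM in IL-23 libraries, against 67.4, 71.7, 73.1 and 80.6 CPM in vehicle libraries. Again the oral groups overlapped and the intraperitoneal groups did not. The log2 fold change was 0.29 ± 0.10 in oral mice (adjusted p = 0.019) and 0.32 ± 0.10 in intraperitoneal mice (adjusted p = 0.0105). The calls of both genes depended on the scaling. With plain library size Traf3ip2 had 0.12 (adjusted p = 0.31) and 0.17 (adjusted p = 0.151) and Traf6 0.09 (adjusted p = 0.402) and 0.10 (adjusted p = 0.339) in oral and intraperitoneal mice, and the Traf6 calls were also lost with upper-quartile factors (adjusted p = 0.0618 and 0.0571). The oral Traf6 call was lost without IL-23 library 26 (adjusted p = 0.0574), vehicle library 27 (adjusted p = 0.0671) or vehicle library 33 (adjusted p = 0.0539).

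The induced regulators had the largest changes. Zc3h12a (chr4:125118414-125127881, minus strand, ID 230738) encodes Regnase-1, an RNase that degrades inflammatory mRNAs. In oral mice it stood at 196, 223, 241 and 310.5 CPM in IL-23 libraries, against 19.6, 19.9, 24.0 and 26.0 CPM in vehicle libraries. In intraperitoneal mice it stood at 244, 254, 259 and 313 CPM in IL-23 libraries, against 20.5, 27.2, 34.0 and 35.2 CPM in vehicle libraries. The lowest IL-23 library was far above the highest vehicle library. Its log2 fold change was 3.43 ± 0.17 in oral mice (adjusted p = 4.12e-10, 10.8-fold) and 3.20 ± 0.17 in intraperitoneal mice (adjusted p = 8.22e-10, 9.21-fold). By the size of its change over both routes it ranked 167 of the 14671 genes tested.

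Nfkbiz (chr16:55811375-55838954, minus strand, ID 80859) encodes IkB-zeta, a nuclear cofactor that NF-kB needs at many IL-17 target genes. In oral mice it stood at 154, 169, 205 and 206 CPM in IL-23 libraries, against 34.1, 36.1, 38.0 and 38.5 CPM in vehicle libraries. In intraperitoneal mice it stood at 143, 155, 169 and 199.8 CPM in IL-23 libraries, against 35.4, 37.8, 40.0 and 52.3 CPM in vehicle libraries. Here too every IL-23 library exceeded every vehicle library. The log2 fold change was 2.32 ± 0.13 in oral mice (adjusted p = 1.26e-09, 5.0-fold) and 2.01 ± 0.13 in intraperitoneal mice (adjusted p = 7.02e-09, 4.02-fold), with a rank of 438 by size over both routes. Per kilobase, Zc3h12a and Nfkbiz were at similar levels in vehicle oral mice, and apart in IL-23 oral mice. Zc3h12a had 84.2 ± 16.9 CPM per kilobase in IL-23 oral and 7.77 ± 1.09 in vehicle oral mice (SD, n = 4 each). Nfkbiz had 36.6 ± 5.18 in IL-23 oral and 7.31 ± 0.40 in vehicle oral mice.

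**Figure D3:**
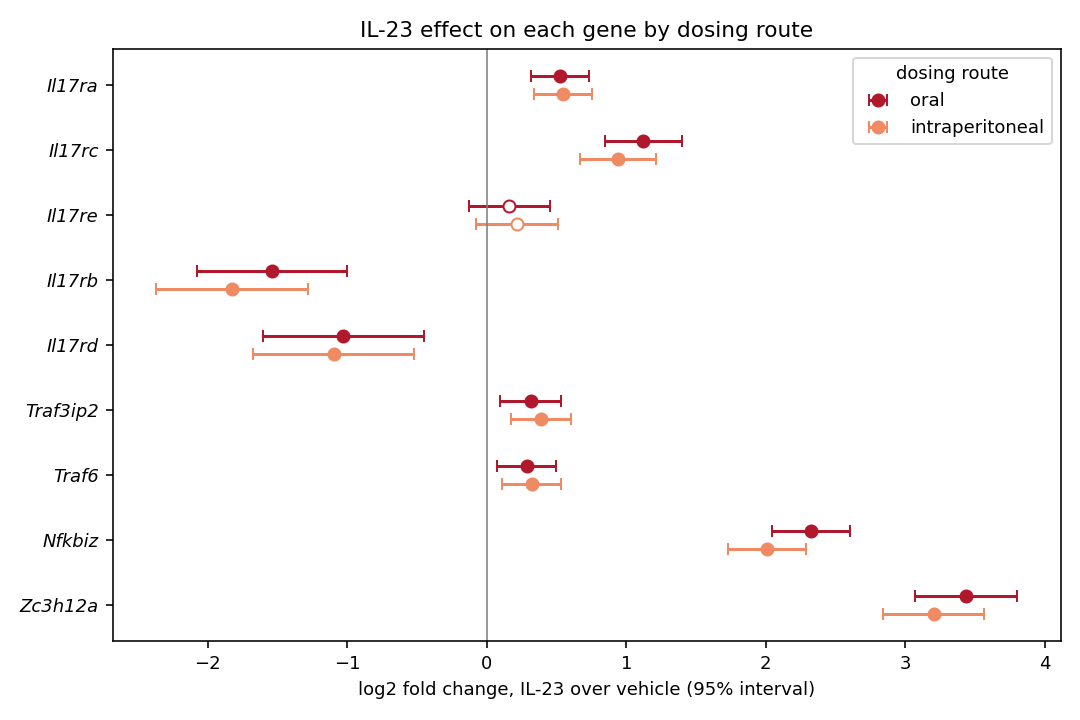
Log2 fold change of IL-23 over vehicle for each gene, by dosing route, with 95% intervals. Filled points were called and open points (Il17re) were not. The intervals of both routes overlap for every gene, from Il17rb at -1.54 (oral) and -1.82 (intraperitoneal) to Zc3h12a at 3.43 (oral) and 3.20 (intraperitoneal).

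The dosing route was compared to ask whether the IL-23 effect depended on it. The difference of the effects, intraperitoneal minus oral, lay between -0.31 (Nfkbiz, 95% interval -0.69 to 0.07) and 0.08 (Traf3ip2, 95% interval -0.23 to 0.38) on the log2 scale, and 0 of the 9 genes were called by edgeR. Over all genes edgeR called 0% for this difference, with 796 genes (5.43%) at an unadjusted p below 0.05 and none of the 9 among them, while DESeq2 called 1 gene and limma-voom 0, neither a member. The intervals were widest for Il17rd (-0.88 to 0.75) and Il17rb (-1.06 to 0.48), where counts were lowest. The route itself, intraperitoneal minus oral, gave log2 differences of -0.14 to 0.16 in IL-23 mice and -0.14 to 0.37 in vehicle mice, and again edgeR called 0 of the 9 genes and 0% of all genes. At an unadjusted p below 0.05 there were 1874 genes (12.8%) in IL-23 mice, none of them among the 9. In vehicle mice there were 1087 genes (7.41%), of which 1 was a member, Zc3h12a (log2 difference 0.37 ± 0.17, unadjusted p = 0.0441, adjusted p = 0.66, edgeR). DESeq2 called 55 genes in IL-23 mice and 0 in vehicle mice, and limma-voom 0 in both, none of them a member.

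Groups that did not overlap were common in the whole table. In oral mice 5 of the 9 genes had IL-23 and vehicle libraries that did not overlap, against 59.7% of all genes tested, which is close to the background. In intraperitoneal mice 8 of the 9 did, against 51.0% of all genes. With the routes pooled 5 of the 9 did (Il17ra, Il17rb, Il17rc, Nfkbiz and Zc3h12a), against 38.3% of all genes.

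The ligands give the other side of each receptor pair. Of the 6 IL-17 family genes, 3 passed the filter: over both routes Il17f and Il17c rose and Il17d fell. Il17f, a ligand of the IL-17RA and IL-17RC pair, had 523 counts in IL-23 and 8 in vehicle libraries, with a log2 fold change of 6.79 ± 0.41 (adjusted p = 4.29e-10) and 7.48 without vehicle oral library 4. Il17a, the other ligand of that pair, had 64 counts in IL-23 and 0 in vehicle libraries. These counts were uneven: Il17a stood at 0 to 0.72 CPM in IL-23 oral and 0.49 to 4.27 CPM in IL-23 intraperitoneal libraries. Library 28, which stood apart in its T cell markers, held the highest Il17a level. It also held the highest Il17f level, 16.6 CPM against a median of 7.18 CPM over the IL-23 libraries. Il17c, the ligand of IL-17RE, averaged 3.30 ± 2.22 CPM in IL-23 and 0.16 ± 0.13 CPM in vehicle libraries (SD, n = 8 each). The log2 fold change of Il17c was 4.36 ± 0.49 (adjusted p = 4.87e-07). Of the genes for its receptor pair, Il17re was not called and Il17ra was called higher. Il17d averaged 4.22 ± 0.82 CPM in IL-23 and 6.83 ± 1.04 CPM in vehicle libraries, a log2 fold change of -0.69 ± 0.14 (adjusted p = 0.000237). The IL-17RB ligands were scarce: Il25 had 5 counts in IL-23 and 9 in vehicle libraries (adjusted p = 0.315), and Il17b 39 and 55 counts (adjusted p = 1), both in a fit of 20799 genes with no count filter.

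The kinases and adaptors that carry the signal from Act1 onwards changed in both directions and by small amounts. Over both routes 8 of 21 were called higher, 5 lower and 8 not called, with a median log2 fold change of 0.07, against -0.04 for all genes. The background over both routes was 73.6% of genes called, 34.9% higher and 38.7% lower, so these shares lie near it. Map2k4, a kinase upstream of JNK, rose to 269.8 ± 41.6 CPM in IL-23 libraries, against 151 ± 14.5 CPM in vehicle libraries (log2 fold change 0.84 ± 0.08). The chaperone gene Hsp90ab1, whose product binds Act1, had a log2 fold change of 0.54 ± 0.06. Traf5, an adaptor in the same complexes, fell to 9.68 ± 2.05 CPM in IL-23 libraries, against 15.8 ± 1.93 CPM in vehicle libraries (log2 fold change -0.70 ± 0.13). Ikbkg, the regulatory subunit of the IKK complex, fell with a log2 fold change of -0.48 ± 0.06, and the other genes called lower were Gsk3b (-0.28), Mapk9 (-0.25) and Tab1 (-0.19), named after their values were seen. By route, 6 were called higher and 6 lower in oral mice, and 6 and 3 in intraperitoneal mice, where Mapk9 (adjusted p = 0.147) and Tab1 (adjusted p = 0.305) were not called. The direction of this group rests on the scaling: with plain library size 2 of the 21 genes were called higher and 12 lower (median -0.14), and with upper-quartile factors 6 and 6 (median -0.02).

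All 15 transcription factor genes of the list were called higher over both routes, with a median log2 fold change of 1.0. Over all genes tested, 34.9% were called higher and the median was -0.04. The list was chosen with earlier results of these data known, so its direction is not independent evidence. By route, 13 of the 15 were called higher in oral and 11 in intraperitoneal mice, and none lower, against 29.2% and 30.8% of all genes called higher. Bcl3, an atypical IkB protein related to IkB-zeta, averaged 63.3 ± 10.3 CPM in IL-23 and 5.63 ± 1.91 CPM in vehicle libraries (SD, n = 8 each). Its log2 fold change was 3.52 ± 0.17 (adjusted p = 2.95e-11), close in size to Zc3h12a. Nfkbid, a further member of that family, had 2.18 ± 0.15, close to Nfkbiz. The AP-1 genes Junb and Fos had 2.15 ± 0.16 and 2.16 ± 0.52, and the Fos value was 1.295 without IL-23 oral library 68, which held 744 CPM. Fos was called in oral mice (2.93, adjusted p = 0.00212) and not in intraperitoneal mice (1.39, adjusted p = 0.118). Fosl1, Fosb and Jun were not called in intraperitoneal mice either, and Fosb was also not called in oral mice (adjusted p = 0.0783). When the oral and intraperitoneal changes were compared directly, edgeR called none of these genes. Under plain library size 13 of the 15 were called higher, and under upper-quartile factors or limma-voom 14, with none called lower.

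Genes known to restrain IL-17 signalling went in both directions, with shares near the background of 73.6% called. Of 13, among them the member Il17rd, 6 were called higher, 3 lower and 4 not called, with a median log2 fold change of 0.05. By route, 4 were called higher and 3 lower in oral mice, and 5 and 2 in intraperitoneal mice. Nfkbia, the classical NF-kB inhibitor, averaged 292 ± 45.0 CPM in IL-23 and 97.3 ± 13.8 CPM in vehicle libraries (log2 fold change 1.58 ± 0.10), and Tnfaip3, the ubiquitin-editing enzyme A20, 73.8 ± 20.5 CPM and 27.0 ± 4.92 CPM (log2 fold change 1.45 ± 0.16). Usp18 had 0.99 ± 0.28 over both routes (adjusted p = 0.00422), and 0.65 without library 28. It was called in intraperitoneal mice (1.36, adjusted p = 0.0068) and not in oral mice (0.62, adjusted p = 0.181). The IL-23 intraperitoneal libraries were uneven here, with a Usp18 median of 6.89 CPM and a highest value of 21.8 CPM. The genes called lower were Il17rd, Btrc (-0.77 ± 0.07) and Cyld (-0.21 ± 0.08), the last 2 named after their values were seen. Cyld was not called in intraperitoneal mice (-0.07, adjusted p = 0.629). Its call over both routes (adjusted p = 0.0249) was lost without IL-23 oral library 14 or 26, vehicle oral library 51 or vehicle intraperitoneal library 67 (adjusted p = 0.0524, 0.059, 0.0563 and 0.0527). Under plain library size 4 of the 13 genes were called higher and 6 lower, and the median was -0.15, or -0.03 with upper-quartile factors.

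Among 13 tested genes of mRNA stability, the arm that Zc3h12a belongs to, 6 were called higher, 2 lower and 5 not called, with a median log2 fold change of 0.33, or 0.0093 with limma-voom. The share called lay near the background of 73.6% and a little below it, as it did for the kinases and adaptors. By route, 6 were called higher and 2 lower in oral mice, and 6 and 1 in intraperitoneal mice. Zc3h12c, a paralog of Zc3h12a, averaged 44.4 ± 9.47 CPM in IL-23 and 10.9 ± 3.05 CPM in vehicle libraries (log2 fold change 2.03 ± 0.16, adjusted p = 5.25e-09). Zfp36, which encodes the mRNA-destabilising protein tristetraprolin, averaged 157 ± 89.7 CPM and 46.5 ± 6.23 CPM (log2 fold change 1.71 ± 0.20). Its IL-23 median was 132 CPM, with IL-23 oral library 68 the highest at 367 CPM. When single libraries were left out the Zfp36 change was 1.468 to 1.827 and stayed called. Arid5a, an RNA-binding protein known to counter Regnase-1 on some transcripts, had 0.63 ± 0.13, well under Zc3h12a. The genes called lower were Dcp1b, a decapping cofactor (-0.67 ± 0.20, not called in intraperitoneal mice at adjusted p = 0.0516), and Zfp36l2 (-0.50 ± 0.13), named after its value was seen.

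The known IL-17 target genes rose in a body: 27 of 28 were called higher and 1 lower, with a median log2 fold change of 3.80. Over all genes tested, 34.9% were called higher and 38.7% lower, with a median of -0.04. The target list was drawn up with earlier results of these data known, so its direction is not independent evidence. The largest changes were those of the calprotectin genes S100a8 (8.59 ± 0.30) and S100a9 (8.46 ± 0.30), the cytokine gene Il19 (8.38 ± 0.41) and the defensin gene Defb3 (8.20 ± 0.31). By route, 25 were called higher and 1 lower in oral mice, and 26 and 0 in intraperitoneal mice. Of all genes, 29.2% were called higher in oral and 30.8% in intraperitoneal mice. The gene called lower was the stromelysin gene Mmp3, named after its values were seen, with 57.1 ± 45.3 CPM in IL-23 and 87.1 ± 15.7 CPM in vehicle libraries (log2 fold change -0.68 ± 0.24, adjusted p = 0.0192), and -1.035 without library 28. It was called in oral mice (-1.26, adjusted p = 0.00499) and not in intraperitoneal mice (-0.09, adjusted p = 0.828). The IL-23 intraperitoneal libraries were uneven, with a Mmp3 median of 47.7 CPM and a highest value of 168 CPM. The intraperitoneal change without library 28 is not given here, so no contrast between routes is drawn for Mmp3. When the oral and intraperitoneal changes were compared directly over all 14671 genes tested, edgeR called none, Mmp3 included. The target list shares S100a8, S100a9 and Mmp9 with the neutrophil markers. The 10 neutrophil markers summed to 19890.3 to 30442 CPM in IL-23 and 29.1 to 125 CPM in vehicle libraries. Almost all of that sum was S100a8 and S100a9, at 10284 ± 1655 and 13376 ± 1988 CPM in IL-23 and 27.1 ± 12.7 and 38.9 ± 18.3 CPM in vehicle libraries (SD, n = 8 each). The neutrophil receptor genes Cxcr2 and Csf3r stood at 13.2 to 30.2 CPM and 7.96 to 39.2 CPM in IL-23 libraries, against 0.30 to 2.64 CPM and 0.59 to 5.12 CPM in vehicle libraries. Granule genes were near 0, with Camp at 0 to 0.38 CPM in IL-23 and 0.20 to 0.92 CPM in vehicle libraries and Ngp at no more than 0.35 CPM. In each group 6 of these 10 markers were detected in all of its libraries, but they were not the same 6 with IL-23 and with vehicle. Retnlg, at 3.24 to 20.3 CPM in IL-23 and 0 to 1.59 CPM in vehicle libraries, was among them only with IL-23, and Camp only with vehicle. Elane was at 0 in both IL-23 groups, Ly6g in vehicle oral mice and Ngp in vehicle intraperitoneal mice. The part of neutrophils in the target list was not tested.

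**Figure D4:**
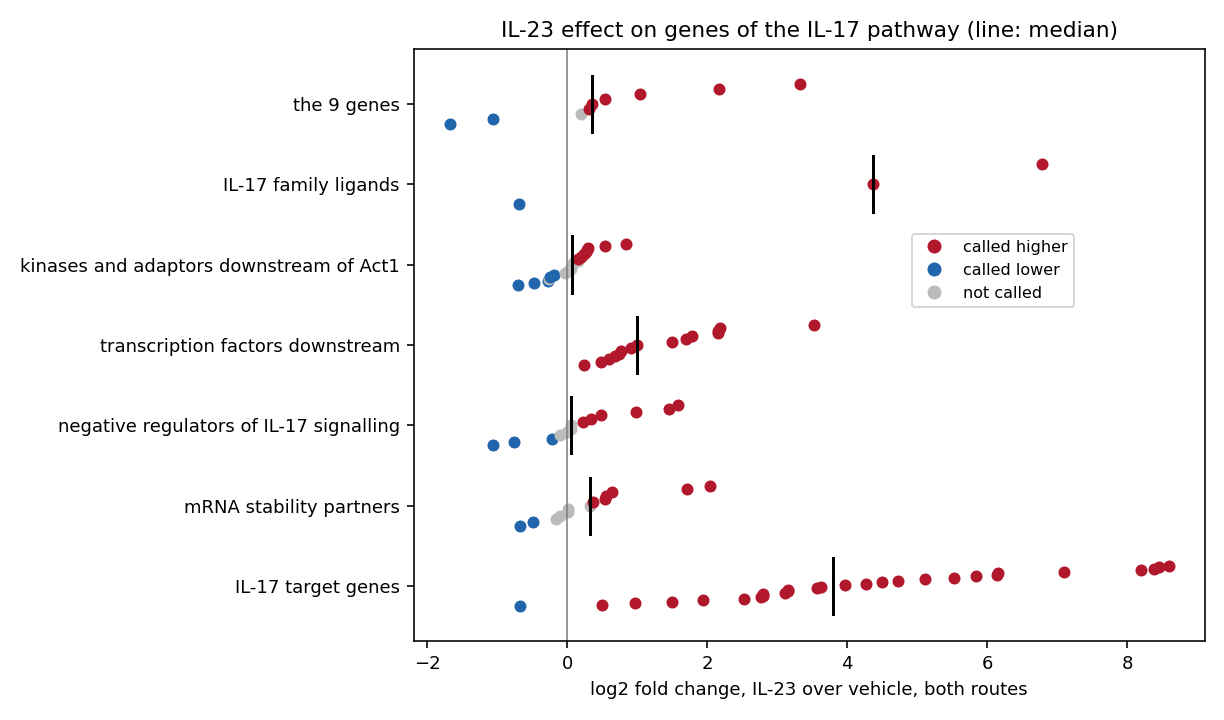
Log2 fold change of IL-23 over vehicle, over both routes, for the 9 genes and for 6 lists of pathway genes that passed the count filter. Each point is a gene, coloured by its call, and the black line is the list's median. The target genes (median 3.80) and transcription factors (median 1.0) lie to the right, whereas the kinases (0.07) and negative regulators (0.05) centre near 0.

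For each gene the most similar patterns were sought by the root mean square difference of log2 CPM over the 16 libraries, each gene centred on its own mean, among 14662 other genes. Nearest to Zc3h12a were Slc5a8 and Defb6, at 0.30 and 0.31 log2 units, where the median gene lay at 1.72. Nearest to Nfkbiz were Thbd and Sp6 (0.17 and 0.23, median 1.15). Nearest to Il17rc were Cblc and Pak6 (0.10 and 0.11, median 0.64), and to Il17ra Med17 and Utp18 (0.09 and 0.10, median 0.45). Unc45a and Ggt6 were nearest to Il17re (both 0.11, median 0.40), Pdzrn4 and Kcna6 to Il17rb (0.25 and 0.26, median 0.93), and Mfsd12 and 4930402H24Rik to Il17rd (0.24 and 0.26, median 0.68). Trak2 and Ubap1 were nearest to Traf3ip2 (both 0.10, median 0.40), and Mark2 and Dnm2 to Traf6 (both 0.09, median 0.39). The measure rests on the same libraries as the tests and mostly follows the difference between IL-23 and vehicle.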

How the data were processed

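Total RNA libraries (TruSeq Stranded Total RNA kit, Illumina sequencing, per the labels' protocols) were deposited as raw read counts per gene, unscaled. The submitters' processing notes list FastQC, STAR, featureCounts, Subread 1.5.0 and build GRCm38. The gene annotation and strand setting are not given. The test was edgeR 4.0.16 under R 4.3.3, with TMM factors, filterByExpr on the 4 groups (minimum count 10, 14671 genes kept), and quasi-likelihood F-tests on a model with 1 mean per group (12 residual degrees of freedom). Adjusted p (Benjamini-Hochberg) covers every gene tested, and a gene is called below 0.05. SE is derived from the log2 fold change and its F. CPM is a count over the TMM-scaled library size. Code was tested on simulated data.

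The members, lists and tests were chosen with earlier results of these data known. Named genes are all 9 members, up to 4 called genes with the largest change per list, and the 2 nearest patterns per member. No replicate number is shared between groups, so nothing was paired. Alternatives were RLE and upper-quartile factors, plain library size, no count filter, 1 CPM in 4 libraries, DESeq2 1.42.0, limma-voom (limma 3.58.1), only the groups compared, and leaving out each library. Positions are from RefSeq on GRCm38.p6. Sequencing reads carry no molecular identifiers, and depth limits Il17rb and Il17rd most, at 8 to 175 counts per library.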

Additional observations from a re-analysis of the deposited data

Results flagged for a closer look

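Of 36 sets of 4 libraries (9 genes in 4 groups), 2 held a library far from the others, with a gap to its nearest neighbour that took most of the group's range (Dixon's test at the 95% level). Chance alone flags about 5% of such sets. Il17rd stood at 14.3 CPM in vehicle intraperitoneal library 67, against 9.63 to 9.94 CPM in the other 3 libraries of that group. Il17re stood at 46.8 CPM in vehicle oral library 4, against 34.7 to 36.7 CPM in the other 3, and without that library the change of Il17re over both routes was called higher (log2 fold change 0.24, adjusted p = 0.0315). edgeR called none of the 9 genes when the IL-23 effects of the routes were compared.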

How the results depend on the processing

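Zc3h12a, Nfkbiz, Il17rc, Il17ra, Il17rb and Il17rd kept their direction and their call in both routes under every alternative run. The members called higher numbered 4 to 6 in oral and 4 to 7 in intraperitoneal mice, and those called lower 2 throughout. With plain library size Il17re turned to -0.035 in oral mice, -0.0015 in intraperitoneal mice and -0.018 over both routes, and the calls of Traf3ip2 (0.15) and Traf6 (0.09) over both routes were lost, since that scaling shifts the median gene downwards. Over both routes Il17re, not called at 0.19 (adjusted p = 0.0893), was called higher without library 28 (0.28), vehicle oral library 4 (0.24) or vehicle intraperitoneal library 50 (0.24), with adjusted p from 0.00567 to 0.858 over all its alternatives. Cyld was also lost with no count filter (-0.19, adjusted p = 0.0517). With DESeq2 the difference between routes had 1 called gene and the route effect in IL-23 mice 55, against 0 with edgeR, and the cause was not tested. Near 0 the sign of the route difference changed for Il17ra with upper-quartile factors (-0.0069) and, when libraries were left out, for Il17ra (-0.056 to 0.087), Il17rd (-0.26 to 0.215), Il17re (-0.049 to 0.18) and Traf6 (-0.050 to 0.095), never called. No paired analysis was possible because the groups share no replicate number. Depth limits Il17rb and Il17rd, whose lowest libraries held 8 and 24 counts.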
